A study of Mus musculus with 12 samples.

Results

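The RNA and the accessible chromatin of 10 iron handling genes were examined in mouse liver after vertical sleeve gastrectomy (VSG), an operation that leaves a tube of the stomach. The genes were chosen by name, with earlier results of these data known. They were Hamp, Hamp2, Tfrc, Tfr2, Slc40a1, Hfe, Hfe2 (also called Hjv), Fth1, Ftl1 and Trf. Of the 24910 genes in the expression table, 9 were of this set, through 13 RefSeq transcripts, and the RNA of Trf was not analysed here. All animals were male wild-type C57BL/6J mice. The VSG and Sham mice received a diet with 60% of its calories as fat from 8 weeks of age for 14 weeks, then an operation, then the same diet for another 14 weeks. In VSG mice about 80% of the stomach was removed, in Sham mice the stomach was isolated and pressed with forceps, and both had a liquid diet for the first 4 days afterwards. Control mice ate chow for 28 weeks, so that diet and surgery cannot be told apart in the comparison of Sham with Control. RNA-seq and FAIRE-seq, which recovers nucleosome-depleted DNA, were each made from 2 livers per group, and the RNA came from the livers used for FAIRE.

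The liver sets the iron content of the body through hepcidin, the peptide hormone encoded by Hamp. Hepcidin binds ferroportin, the iron exporter encoded by Slc40a1, and causes its degradation, so that less iron enters the blood from the gut and from macrophages. Hepatocytes raise Hamp when the BMP-SMAD pathway senses iron, with the products of Hfe, Hfe2 (hemojuvelin) and Tfr2 (transferrin receptor 2) as parts of that sensor, and when interleukin 6 acts through STAT3. Cells take up transferrin-bound iron through the receptor encoded by Tfrc and store iron in ferritin, made of the chains encoded by Fth1 and Ftl1.

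Expression is given as FPKM, the number of fragments corrected for the length of the transcript and for the number of mapped fragments in the library, added up over all RefSeq transcripts with the same gene symbol. The total FPKM per mouse lay between 420261 and 514179. The read depth is unknown, but the steps of the lowest FPKM values gave relative depths between 0.676 and 1.56 times that of Control 1. The hepatocyte markers with a row, 8 of 10, summed to between 14274 and 34673 FPKM in every liver, lowest in Sham 2, a sum carried by Apoa1, Fabp1, Ttr and Apoc3. All 8 were below 0 in Sham minus Control (median -1.20 on the log2 scale) and 6 of 8 in VSG minus Control (median -0.46), while 7 of 8 were above 0 in VSG minus Sham (median 0.49). Tat, a liver enzyme named here after its values were seen, passed the FDR in both comparisons with Control, at -2.84 ± 0.24 (SE) in Sham (limma, adjusted p 0.0445) and -2.47 ± 0.24 (SE) in VSG (adjusted p 0.0679). With either Control mouse left out its values were between -2.42 and -2.89 and its adjusted p at least 0.328, and without either VSG mouse the adjusted p was at least 0.138. No gene of the set passed an FDR of 10% in any comparison (limma on log2(FPKM + 1), Benjamini-Hochberg over 9869 genes), and with 2 mice against 2 an exact permutation test of a single gene cannot give a p below 0.333. At that FDR 28 of all genes were called in Sham against Control (0.284%), 5 in VSG against Sham (0.0507%) and 28 in VSG against Control (0.284%). At the same FDR the paper reports more genes in Sham against Control and in VSG against Sham, with DESeq2 on read counts. The replicates came from separate mice.

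The largest differences of the set lay in hepcidin. Hamp (NM_032541) was at 2052 and 2407 FPKM in the Control livers, at 1253 and 718 in the Sham livers and at 99.7 and 4.74 in the VSG livers. The 3 groups did not overlap, with Control highest and VSG lowest, and the 2 VSG mice differed from each other by 21.1 times. Among the genes of a liver, ordered from the highest FPKM, Hamp stood 22nd and 20th in Control, 51st and 71st in Sham, and 700th and 5599th in VSG. The group mean of Sham was 986 ± 378 (SD, n = 2) and that of VSG 52.2 ± 67.2 (SD, n = 2), a ratio of 18.9, while Control at 2230 ± 251 (SD, n = 2) was 42.7 times the VSG mean. On the log2(FPKM + 1) scale VSG minus Sham was -5.30 ± 1.35 (SE), the 4th lowest of 9869 genes, with an unadjusted p of 0.0112 and an adjusted p of 0.842. For VSG minus Control the values were -6.53 ± 1.35 (SE) and an adjusted p of 0.332, and for Sham minus Control -1.23 ± 1.35 (SE) and 0.753. All 3 groups share the same spread per gene in this fit, so these errors include the gap between the 2 VSG mice. With only Sham and Control in the fit, Sham minus Control was -1.23 ± 0.43 (SE, limma, adjusted p 0.446). The hepatocyte markers had a median of -1.20 in that last comparison, but ranged from -2.84 for Tat to -0.15 for Apoa1. Their part in the Hamp value was not tested. Without VSG 2 the VSG minus Sham difference was -3.24 (adjusted p 0.453), and without VSG 1 it was -7.37 (adjusted p 0.192). Without VSG 1 Hamp passed the FDR against Control, at -8.60 with an adjusted p of 0.0878, where the lone VSG mouse is assumed to vary like the other groups. In whole liver, fewer cells of a type and less RNA per cell cannot be told apart.

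Hamp2 (NM_183257), which encodes a hepcidin-like peptide and lies beside Hamp, followed the same order. Its level was 575 and 542 FPKM in Control, against 272 and 160 in Sham and 23.0 and 1.56 in VSG. The groups again did not overlap. VSG minus Sham was -4.74 ± 1.07 (SE) on the log2 scale, the 9th lowest of 9869 genes, with an adjusted p of 0.761, and VSG minus Control was -6.15 ± 1.07 (SE) with an adjusted p of 0.272. Sham minus Control was -1.41 ± 1.07 (SE), with an adjusted p of 0.654. With only Sham and Control in the limma fit, it was -1.41 ± 0.36 (SE), with an adjusted p of 0.358. Without VSG 2 the VSG minus Sham difference was -3.12, and without VSG 1 it was -6.35. Without VSG 1 Hamp2 also passed the FDR against Control, at -7.77 with an adjusted p of 0.0878.

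The ratio of Hamp to Hamp2 stayed between 3.03 and 4.61 in all 6 livers, while their sum ran from 2949 FPKM in Control 2 to 6.30 in VSG 2. Both mRNAs share much of their sequence. In the annotated transcripts, 370 of 392 aligned bases were identical (94.4%), and 60 of the 343 stretches of 50 bases in the Hamp mRNA also occurred in that of Hamp2 (17.5%). The split of such reads between both genes rests on the assignment made upstream, so their separate levels are less certain than their sum.

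**Figure D1:**
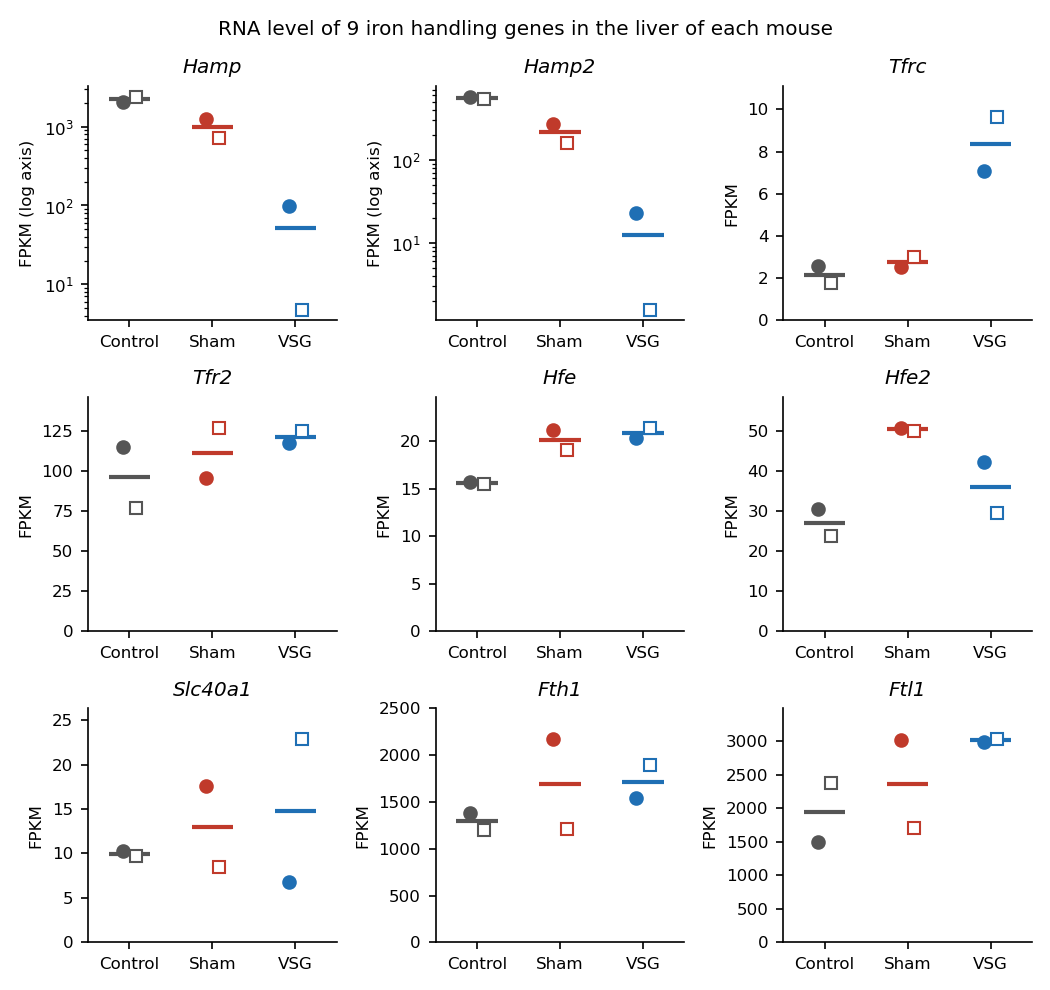
FPKM of the 9 genes in each liver, by group (filled circle replicate 1, open square replicate 2, bar the mean of 2 mice; log axis for Hamp and Hamp2 only). Hamp and Hamp2 step down from Control to Sham to VSG, Tfrc is highest in both VSG mice, and the other genes differ by less.

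The stretch before the start of Hamp is shown because it lies under a FAIRE peak that was absent from the VSG list, and that of Hamp2 because its RNA followed the order of Hamp. RefSeq promoter windows (GRCm38.p6) existed for 7 of the 10 genes, without Slc40a1, Hfe2 and Trf, and their 250 bases before the start were found again, letter for letter, in mm9. The window of Hamp is chr7:31729049-31729298 and that of Hamp2 is chr7:31709201-31709450, both on the minus strand and both 5′ to 3′, with the motifs GGCGCC and TTCNNNGAA in capitals.
Hamp: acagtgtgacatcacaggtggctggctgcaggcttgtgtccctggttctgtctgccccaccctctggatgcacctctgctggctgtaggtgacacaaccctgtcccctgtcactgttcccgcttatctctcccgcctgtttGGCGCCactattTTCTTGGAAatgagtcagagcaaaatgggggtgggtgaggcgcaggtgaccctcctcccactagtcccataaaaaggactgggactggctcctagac
Hamp2: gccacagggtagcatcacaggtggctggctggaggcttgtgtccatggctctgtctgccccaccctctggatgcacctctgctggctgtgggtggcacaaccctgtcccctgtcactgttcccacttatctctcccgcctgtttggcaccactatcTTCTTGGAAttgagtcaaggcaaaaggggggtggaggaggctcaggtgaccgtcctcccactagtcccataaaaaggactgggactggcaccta
Over the aligned part, 227 of 247 bases were identical (91.9%). The motif GGCGCC, the core of BMP-response elements bound by SMAD proteins, began at base -109 of Hamp and had no match in the Hamp2 window, and 9.59% of 32851 promoter windows held it. The motif TTCNNNGAA, the pattern of STAT factors, began at -97 in Hamp and at -94 in Hamp2, against 7.02% of all windows. The motif GATAA, bound by GATA factors, began at -128 and at -125, and 22.6% of all windows held it. The motif ACGTG, and CACGTG which contains it, matched neither window, against 16.6% and 6.02% of all windows. Both strands were searched, and a match is a description of the letters only. Motif positions are counted from the RefSeq start, which for Hamp lay 12 bases upstream of the GENCODE vM1 start. Peak positions are counted from the GENCODE vM1 start.

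The FAIRE peak lists hold, for each group, the peaks found reproducible between its 2 livers, and give no value per mouse. They held 42204 peaks for Control, 52881 for Sham and 44539 for VSG, with a signal that is compared here only by its percentile within its own list. A peak covered the start of Hamp in Control (chr7:31728999-31729511, signal 0.454, 80.0th percentile) and in Sham (chr7:31728992-31729733, signal 0.487, 60.5th percentile). No VSG peak lay within 5 kb of the gene. The Sham peak reached from base -697 to base 44 relative to the GENCODE vM1 start and so contained the whole window printed above. Of 8634 starts of coding genes under both a Control and a Sham peak, 124 had no VSG peak over the start (1.44%), and among the 9 genes of the set with both peaks this was Hamp alone. The lowest signal on the VSG list was 0.156, and a peak is also missing where it was called in 1 mouse but not reproducible in both, so that a missing peak does not mean a signal of 0.

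The next 2 peaks upstream of Hamp showed the same presence. They lay at chr7:31730412-31731005, over an exon of Usf2, and at chr7:31737635-31738197, in an intron of that gene, and both were called in Control and Sham only. From the fourth peak on, centred at -10391 from the start, the VSG list had peaks again. Within 100 kb of the start of Hamp, 20 merged peaks were found, 12 of them in all 3 lists, 3 in Control and Sham, 3 in Sham and VSG, and 2 in Sham alone. Over all 59249 merged peaks of the genome, 5.06% were called in Control and Sham without VSG. The Sham peak at the start of Hamp was also on the authors' list of 99 sites with more accessibility in Sham than in VSG, which 0.187% of Sham peaks are. None of the other 3 deposited site lists, of 414 sites higher in VSG and of 175 and 61 sites named reversible, had an entry within 100 kb of Hamp. Hamp2 had no peak within 5 kb in any of the 3 lists, although its RNA was at 542 FPKM or more in Control. Its promoter window was 91.9% identical to that of Hamp, and the authors kept only FAIRE reads with a unique genomic position. Whether this affected the calling of a peak at Hamp2 was not tested.

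**Figure D2:**
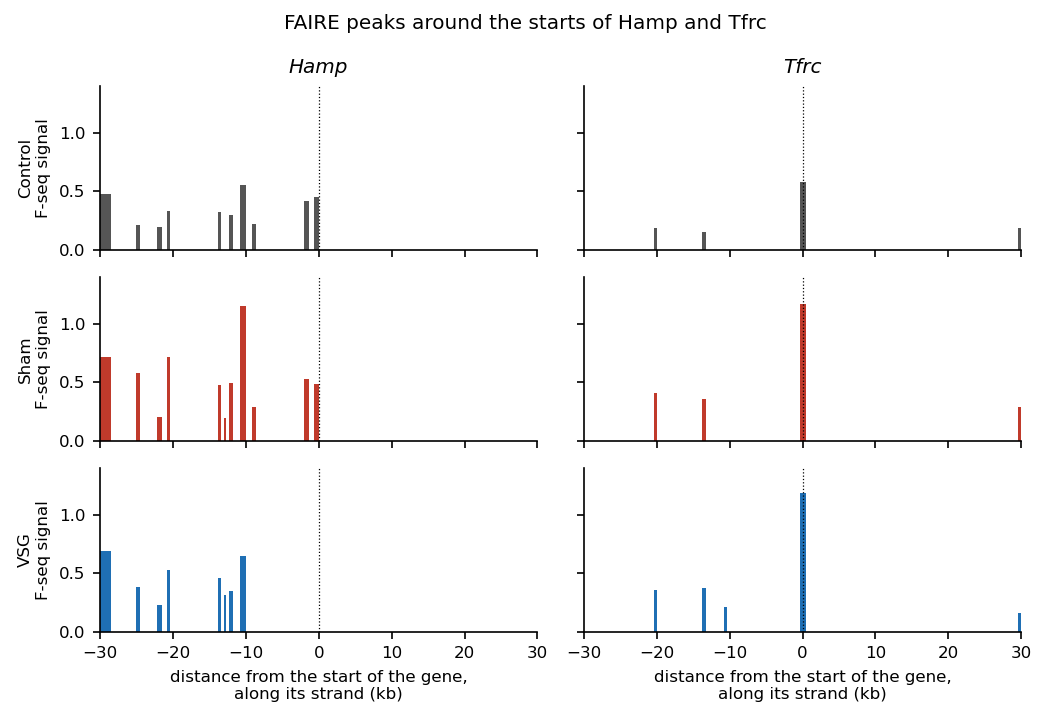
FAIRE peaks within 30 kb of the starts of Hamp and Tfrc along the strand of each gene, one row per group. Bar height is the F-seq signal of the highest peak in a merged peak, and narrow peaks are drawn wider to be visible. The 3 bars nearest to the start of Hamp are missing in VSG, and the peak over the start of Tfrc is present in each group.

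Tfrc (NM_011638), the receptor for transferrin-bound iron, was highest in both VSG livers. It was at 2.56 and 1.76 FPKM in Control, with 2.54 and 2.99 in the Sham livers, and at 7.08 and 9.66 in the VSG livers. Control and Sham overlapped, and both VSG mice lay above all others. The VSG mean of 8.37 ± 1.83 (SD, n = 2) was 3.03 times the Sham mean and 3.87 times the Control mean. VSG minus Sham was 1.30 ± 0.27 (SE) on the log2 scale, with an unadjusted p of 0.00476 and an adjusted p of 0.671. VSG minus Control was 1.56 ± 0.27 (SE), with an adjusted p of 0.270, and Sham minus Control was 0.26 ± 0.27 (SE), with an adjusted p of 0.735. Leaving out either VSG mouse gave VSG minus Sham values of 1.10 and 1.50.

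The mRNAs of Tfrc, Fth1, Ftl1 and Slc40a1 carry iron-responsive elements, stem-loops to which the iron regulatory proteins bind when iron is low. Bound at the 3′ end of Tfrc mRNA they protect it from decay, and bound at the 5′ end of the other mRNAs they block translation. The sites are shown because RNA levels can report on the Tfrc elements but not on translation. A scan of the coding transcripts of GENCODE vM1 for a C, 5 bases, the loop CAGTGN (its last letter not G) and 5 bases able to pair with the first 5 found 4 sites in the 3′ untranslated region of Tfrc and 1 each in the 5′ untranslated region of Fth1, Ftl1 and Slc40a1. In the lines below the bulged C and the loop are in capitals, each read from the strand of its gene.
Tfrc site at chr16:32631305-32631333: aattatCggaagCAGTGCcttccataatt
Tfrc site at chr16:32631684-32631712: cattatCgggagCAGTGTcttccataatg
Tfrc site at chr16:32631749-32631777: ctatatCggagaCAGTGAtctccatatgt
Tfrc site at chr16:32631796-32631824: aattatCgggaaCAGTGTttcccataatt
Fth1 site at chr19:10057222-10057250: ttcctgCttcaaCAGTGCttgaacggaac
Ftl1 site at chr7:52715149-52715177: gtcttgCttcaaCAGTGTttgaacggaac
Slc40a1 site at chr1:45982310-45982338: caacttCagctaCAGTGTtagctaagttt
The coordinates are of mm9. Of 22611 coding genes, 20 had such a site in a 5′ untranslated region (0.0885%) and 88 in a 3′ untranslated region (0.389%), and 4 sites was the most found in the 3′ region of any gene. No site was found in the other 6 genes of the set.

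A FAIRE peak covered the start of Tfrc in all 3 groups, with a signal of 0.579 in Control (89.1st percentile), 1.17 in Sham (94.7th) and 1.19 in VSG (96.6th). The peaks of the 3 lists lay within chr16:32608663-32609545 and contained the RefSeq window of 250 bases at chr16:32608732-32608981 on the plus strand. That window held GGCGCC at base -89 and no match to the other 4 motifs. The motif position is counted from the RefSeq start, 24 bases upstream of the GENCODE vM1 start. Within 100 kb of the start, 16 of 23 merged peaks were in all 3 lists, 2 in Control and Sham, and 1 in VSG alone, centred at -10590 from the start. No entry of the 4 deposited site lists lay within 100 kb of Tfrc.

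The partners of the iron sensor differed less. Tfr2, from 4 RefSeq transcripts, was at 115 and 77.1 FPKM in Control, 95.9 and 127 in Sham, and 118 and 125 in VSG. VSG and Sham overlapped, and VSG minus Sham was 0.14 ± 0.29 (SE), with a 95% interval from -0.62 to 0.89. Its main transcript NM_015799 lay between 40.2 and 84.2 FPKM and NM_001289509 between 21.6 and 44.1, whereas NM_001289507 and NM_001289511 were listed at 0 in 4 and 5 of the 6 livers. Hfe was at 15.7 and 15.6 FPKM in Control, 21.2 and 19.1 in Sham, and 20.4 and 21.5 in VSG. Both surgical groups lay above Control without overlap, with Sham minus Control at 0.34 ± 0.19 (SE, adjusted p 0.566) and VSG minus Control at 0.40 ± 0.19 (SE, adjusted p 0.596). Hfe2 was at 30.6 and 23.8 FPKM in Control, 51.0 and 50.0 in Sham, and 42.4 and 29.6 in VSG. Sham was highest without overlap, and Sham minus Control was 0.88 ± 0.27 (SE), the only difference of the set in that comparison with an unadjusted p under 0.05 (0.0212, adjusted p 0.388). VSG minus Sham of Hfe2 was -0.50 ± 0.27 (SE, adjusted p 0.944).

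Of iron export and storage, no gene reached an unadjusted p under 0.05 in any comparison. Slc40a1 was at 10.2 and 9.74 FPKM in Control, 17.6 and 8.47 in Sham, and 6.74 and 22.9 in VSG. The VSG mice lay below and above both other groups, and VSG minus Sham was 0.04 ± 0.63 (SE) with a 95% interval from -1.58 to 1.65. Fth1, the heavy chain of ferritin, was at 1381 and 1205 FPKM in Control, 2177 and 1211 in Sham, and 1541 and 1894 in VSG. Ftl1, the light chain, was at 1494 and 2381 FPKM in Control, 3017 and 1698 in Sham, and 2981 and 3038 in VSG. Both VSG mice lay above both Control mice in each chain, with VSG minus Control at 0.40 ± 0.39 (SE) for Fth1 and 0.67 ± 0.43 (SE) for Ftl1. The mRNA of Ftl1 has 4 copies elsewhere in mm9 with at least 95% identity over at least 80% of its length, so part of its reads may be shared, while no other gene of the set had such a copy. A FAIRE peak covered the start of each of these 3 genes in every group, that of Ftl1 between the 99.4th and the 99.8th percentile. Across the set, 8 of 10 genes had a start peak in all 3 lists, against 38.1% of 22352 starts of coding genes. That share includes genes without RNA in the liver, while the 9 genes with RNA values were above 1 FPKM in every liver. The 2 shares are therefore not like for like.

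**Figure D3:**
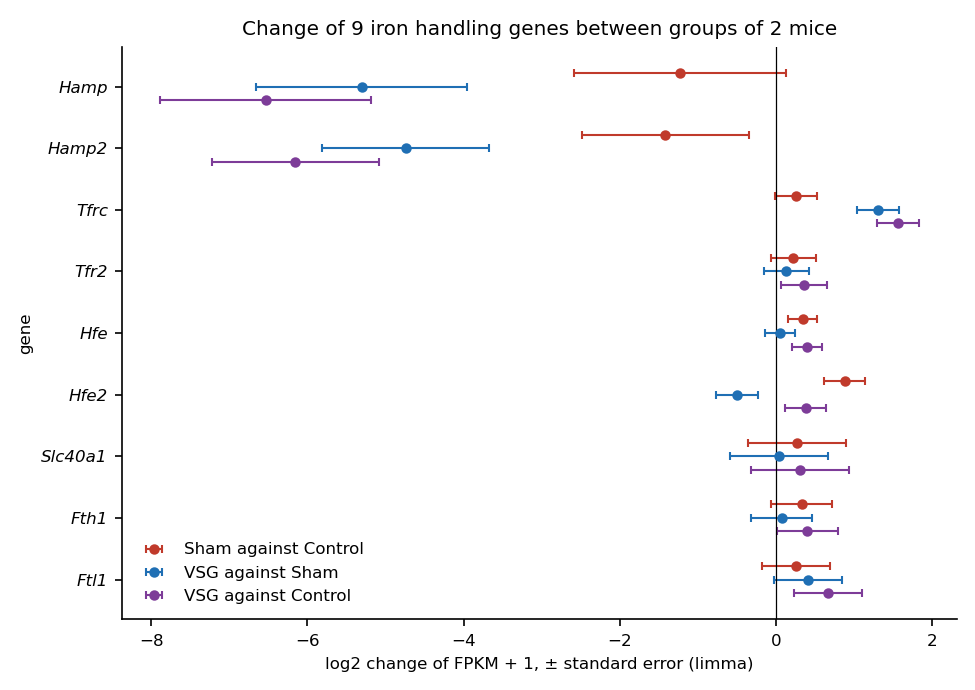
Log2 change of FPKM + 1 of the 9 genes in 3 comparisons, with the standard error from limma (2 mice per group). All 3 groups were fitted together, so the spread of the VSG mice also enters the errors of Sham against Control. The points of Hamp and Hamp2 lie at -4.74 or lower wherever VSG is compared, those of Tfrc at 1.30 and 1.56, and the standard errors of most other points reach or approach 0.

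Counted over the set, 3 of 9 genes (Hamp, Hamp2 and Tfrc) had an unadjusted p under 0.05 in VSG against Sham, where 4.85% of all genes did, and the same 3 did so in VSG against Control, where 9.56% of all genes did. The set was chosen with earlier results of these data known, so its counts are descriptions and not tests. Hamp and Hamp2, whose mRNAs share sequence, are not separate observations. In Sham against Control it was 1 of 9, against 10.9% of all genes. Groups that did not overlap were common: in VSG against Sham 1 of 9 lay higher (Tfrc) and 3 lower (Hamp, Hamp2 and Hfe2), against 18.5% and 9.78% of all genes. In VSG against Control 5 lay higher and 2 lower, against 33.7% and 14.8%, and in Sham against Control 2 lay higher and 2 lower, against 25.4% and 20.4%. The median log2 change of the 9 genes was 0.26 in Sham against Control, 0.05 in VSG against Sham and 0.38 in VSG against Control, beside 0.04, 0.08 and 0.13 over all genes. Median-ratio scaling lowered the median of all genes by 0.16 in VSG against Control (from 0.13 to -0.04). The VSG comparisons share their VSG samples, and those with Control share the Control samples.

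Markers of other cell types moved with some of these groups. The erythroid markers, 9 of 10 with a row, summed to 355 and 293 FPKM in Control, 382 and 154 in Sham, and 448 and 1902 in VSG. VSG 2, the liver with the lowest Hamp and the highest Tfrc, was thus the highest, through the globins Hba-a1, Hbb-b1 and Hbb-b2, whereas Alas2, the erythroid enzyme of heme synthesis, was at 55.9 FPKM there and between 11.3 and 51.6 elsewhere. The red cell membrane gene Slc4a1 was at most at 0.132 FPKM, and Hba-a2 was listed at 0 in all mice. The 11 Kupffer cell markers summed to 52.9 and 36.3 in Control, 136 and 128 in Sham, and 105 and 342 in VSG, also highest in VSG 2. The 9 markers of sinusoidal endothelial cells, the source of the BMP ligands, summed to 52.3 and 24.5 in Control, 11.4 and 8.83 in Sham, and 37.8 and 33.7 in VSG. Clec4g, at 18.5 and 17.4, and Fcgr2b, at 8.73 and 8.58, carried most of the VSG sums. Of 8 of these markers tested, 7 lay above 0 in VSG minus Sham, but in VSG minus Control 4 lay above and 4 below 0. The 10 markers of dividing cells summed to between 3.33 and 7.42 in all mice. In VSG 1, with Hamp at 99.7 and Tfrc at 7.08 FPKM, the Kupffer markers were mixed. Marco, C1qa, C1qb, C1qc and Adgre1 were below both Sham mice, Cd5l was above both, and the other markers lay between them. The erythroid sum of VSG 1 was 448, against 382 and 154 in Sham. The part of these cells in the levels of Hamp, Hamp2, Tfrc and Slc40a1 was not tested.

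The wider pathways held 85 genes in 8 lists, of which 71 were tested and 0 called at the FDR of 10% by limma in any comparison. An unadjusted p under 0.05 was reached by 4 higher and 4 lower genes in Sham against Control, by 3 and 3 in VSG against Sham, and by 2 and 8 in VSG against Control, where both directions together made up 10.9%, 4.85% and 9.56% of all genes. Their median log2 change was -0.09, 0.19 and 0.09 in these comparisons, beside 0.04, 0.08 and 0.13 over all genes.

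In the BMP-SMAD list none of 16 genes tested passed, with a median of -0.08 in VSG against Sham. Id3, a target gene of BMP signalling, was at 42.5 and 44.6 FPKM in Control, 38.4 and 23.1 in Sham, and 18.9 and 4.82 in VSG. Its 3 groups lay in the order of Hamp without overlap, and VSG minus Sham was -1.52 ± 0.63 (SE, adjusted p 0.944). Atoh8, another target of the pathway, was at 6.80 and 6.46 in Control, 1.44 and 3.41 in Sham, and 0.858 and 1.37 in VSG, with VSG minus Sham at -0.64 ± 0.36 (SE, adjusted p 0.944). Other targets did not share that order. Id1 and Id2 overlapped between Sham and VSG, with differences of -0.24 and -0.45, as did Smad7 at 0.24, and Smad6 lay higher in VSG, at 1.27 and 1.32 against 0.924 and 0.805 in Sham (0.30, adjusted p 0.944). The ligand Bmp2 was at 2.74 and 1.84 in Control and at most at 0.977 in the other livers, with Sham minus Control at -1.04 ± 0.33 (SE, adjusted p 0.401). Neo1, a partner of hemojuvelin, ranged from 0.165 to 2.29 over all livers. The ligand Bmp6 was listed at 0 in all mice, which a failed estimate would also give. The interleukin 6 list held 12 genes, of which 9 had a row and 6 were tested. Saa1, Saa2 and Fgb had no row, and Il6 itself, at most at 0.103 FPKM, was not tested. None of the 6 genes tested passed, with a median of -0.32 in VSG against Sham. Socs3, a target gene of STAT3, was at 20.6 and 13.4 in Control, overlapping the Sham livers at 18.6 and 31.8, and at 10.8 and 3.79 after VSG, with VSG minus Sham at -1.75 ± 0.54 (SE, adjusted p 0.944). Both receptor genes, Il6ra and Il6st, were listed at 0 in all mice, as a failed estimate also would be. Stat3 itself ranged from 6.26 to 48.2 within the Sham group, and Jak1, Jak2 and Lbp overlapped between Sham and VSG.

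Of the 8 genes of iron sensing none passed. Aco1, which encodes iron regulatory protein 1, was at 9.20 and 9.11 FPKM in Control, 6.79 and 28.0 in Sham, and 39.6 and 56.5 in VSG. Both VSG mice were above all others, with VSG minus Sham at 1.68 ± 0.65 (SE, adjusted p 0.944). Ncoa4, the receptor for ferritin breakdown, was at 61.4 and 64.8 in Control, 22.3 and 37.9 in Sham, and 39.2 and 28.2 in VSG. Epas1 and Hif1a, hypoxia factors, each had one low Sham mouse, at 2.36 FPKM for Epas1 and listed at 0 for Hif1a in Sham 1. Among 7 import genes tested none passed, with a median of -1.12 in VSG against Sham. Steap4, a metal reductase, was at 162 and 132 in Control, 140 and 266 in Sham, and 58.0 and 61.3 in VSG, with VSG minus Sham at -1.68 ± 0.36 (SE, adjusted p 0.712). Scara5, a ferritin receptor, was at 20.3 and 23.4 in Control, 8.05 and 18.5 in Sham, and 5.37 and 1.76 in VSG. Lcn2, which binds iron-loaded siderophores, was at 154 and 109 in Control, 1932 and 5279 in Sham, and 2069 and 214 in VSG. Steap3, the reductase of transferrin uptake, was at 3.25 and 2.34 in Control, 7.11 and 6.66 in Sham, and 7.78 and 8.12 in VSG, with Sham minus Control at 1.07 ± 0.23 (SE, adjusted p 0.279). Ceruloplasmin, Cp, the copper oxidase that loads iron onto transferrin, was at 50.8 and 237 in Control, 540.4 and 1190.1 in Sham, and 577 and 306 in VSG.

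The genes of heme use and mitochondrial iron lay mostly above 0 in VSG against Sham without passing the test. All 9 genes of heme synthesis and all 15 of mitochondrial iron and iron-sulfur clusters had a positive VSG minus Sham value, with medians of 0.27 and 0.34, beside 0.08 over all genes. Without Sham 2, 7 of 9 heme synthesis values stayed positive, with a median of 0.03. The direction of the mitochondrial list rested on Sham 2, as 6 of 15 values were positive without it, with a median of -0.068. Sham 2 was the liver with the lowest sum of hepatocyte markers, whose part was not tested. Under median-ratio scaling 9 of 9 and 13 of 15 were positive, without VSG 1 the counts were 8 and 13, and without VSG 2 they were 9 and 14. Abcb10, a transporter of the inner mitochondrial membrane, was at 6.95 and 6.30 FPKM in Control, 1.41 and 1.18 in Sham, and 5.81 and 7.81 in VSG. Only the Sham mice were low, with Sham minus Control at -1.73 ± 0.24 (SE, adjusted p 0.155) and VSG minus Sham at 1.76 ± 0.24 (SE, adjusted p 0.392). Nfs1, the cysteine desulfurase of cluster assembly, had VSG minus Sham at 0.83 ± 0.25 (SE), and Slc25a37, the mitochondrial iron importer of erythroid cells, at 1.03 ± 0.44 (SE), with 14.2 FPKM in VSG 2 and 5.52 in VSG 1. Alas1, the first enzyme of heme synthesis in liver, was at 139.6 and 189.5 in Control, 225 and 128 in Sham, and 219 and 420 in VSG. Fech, the last, was at 47.7 and 37.3 in Control, 33.2 and 23.6 in Sham, and 34.3 and 60.4 in VSG. Among 9 genes of heme scavenging and breakdown, haptoglobin (Hp), which binds free hemoglobin, was at 5339.8 and 5572 in Control, 14410.2 and 22141 in Sham, and 11079.6 and 4459 in VSG. Hmox1, the enzyme that opens the heme ring, was at 24.3 and 33.7 in Control, 20.5 and 31.5 in Sham, and 11.4 and 16.4 in VSG, with VSG minus Sham at -0.85 ± 0.34 (SE, adjusted p 0.944). Wide errors marked the other genes with the largest differences of these lists. Sham minus Control was 2.11 ± 1.09 (SE) for Uros and 0.74 ± 0.48 (SE) for Alad, enzymes of heme synthesis, 0.67 ± 0.30 (SE) for Hscb and -0.58 ± 0.41 (SE) for Slc25a28, and 0.64 ± 0.34 (SE) for Blvra and 0.45 ± 0.41 (SE) for Blvrb, the biliverdin reductases. Abcg2 was listed at 0 in 4 of 6 livers, with VSG minus Sham at -2.78 ± 2.32 (SE).

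**Figure D4:**
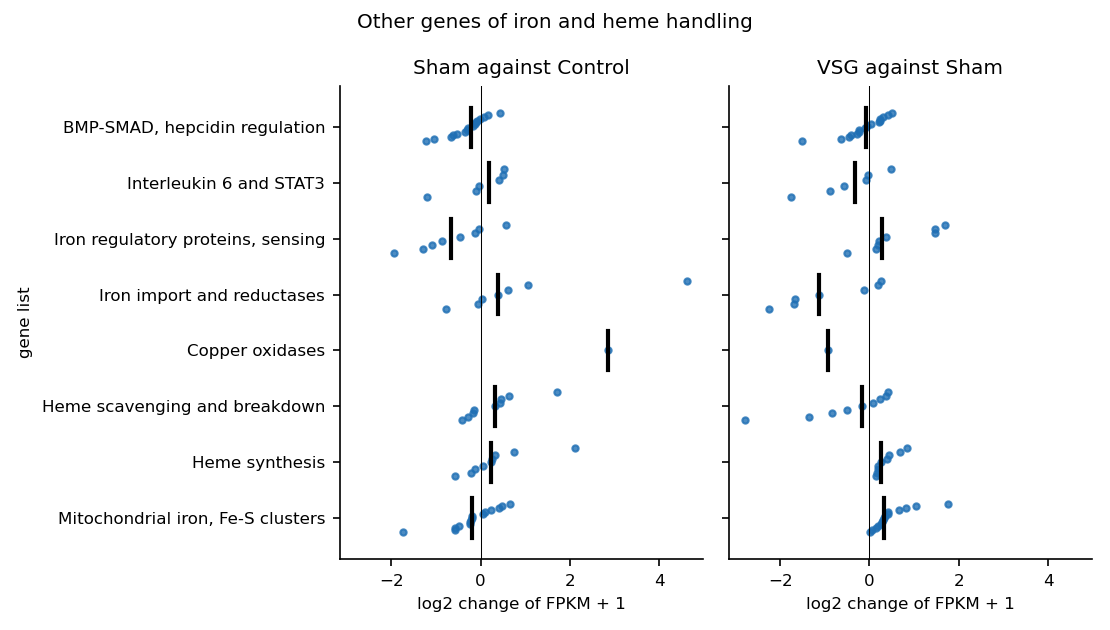
Log2 change of FPKM + 1 for the 71 tested genes of 8 pathway lists in Sham against Control and in VSG against Sham, one point per gene, black bars the median of a list. The points of heme synthesis and of mitochondrial iron all lie right of 0 in VSG against Sham, where without Sham 2 only 7 of 9 and 6 of 15 would, and with median-ratio scaling 9 and 13.

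The genes whose pattern over the 6 livers was most like that of Hamp were Hamp2 (Pearson r = 0.997 on the log2 scale), Gimap1 (0.993), Scarf1 (0.989), Zfp428 (0.987) and Zc3h10 (0.983). Apart from Hamp2 they were low, with no value above 4.58 FPKM. For Tfrc they were Mmp19 (0.985), D330023K18Rik (0.980), Selenop (0.979), Gal3st1 (0.977) and Cops4 (0.975). Selenop, the selenium carrier secreted by the liver, was at 3073 and 3035 FPKM in Control, 3157 and 3279 in Sham, and 3890 and 3898 in VSG. These values describe 6 libraries in 3 groups and were picked as the highest of 9869 genes.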

How the data were processed

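RNA-seq and FAIRE-seq of liver were made in Control, Sham and VSG mice, 2 per group, and each sample was grouped by its title. The deposited FPKM values, 1 per RefSeq transcript and mouse, are the authors' Cufflinks estimates after alignment to mm9 with TopHat2, and the sources give poly(A) selection in one place and ribosomal depletion in another. FAIRE peaks and their signal are the authors' F-seq output, deposited as 1 list per group after IDR across both mice. The authors' 4 site lists give other values, positions only, as deposited. The deposited comparison tables, which hold the authors' log2 fold changes and p-values from DESeq2, were not used.

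FPKM was summed per gene with RefSeq symbols (34046 of 34933 transcripts matched). The 9869 genes that reached an FPKM of 1 in 2 or more mice were fitted on log2(FPKM + 1) with limma 3.58.1 (R 4.3.3), trended variance and all 3 groups in one fit, with Benjamini-Hochberg adjustment. The script was tested on simulated data. The sequence of NCBIM37, the same build as mm9, and GENCODE vM1 gave positions, written 1-based. All 21 chromosome names of the FAIRE files matched. Copies were searched with BLAST 2.17.0. Named genes were the 10 genes, pathway genes past the FDR (none), the 3 genes of each list with the largest change in Sham against Control and in VSG against Sham, and the 5 most correlated genes. The alternatives were another pseudocount, other filters, transcripts in place of genes, another scaling, 2 groups in the fit, no trend, the replicate number as a block and each mouse left out. The members and lists were chosen with earlier results of these data known.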

Additional observations from a re-analysis of the deposited data

How the results depend on the processing

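Of 378 values of single genes under the alternatives, 359 kept their direction and their side of the FDR, 2 passed the FDR (Hamp and Hamp2 in VSG against Control without VSG 1) and 17 turned direction. Those 17 were values of Tfr2, Slc40a1, Hfe, Fth1 and Ftl1. Tfr2 turned in Sham against Control per transcript (-0.27), and in VSG against Sham Slc40a1, Hfe and Fth1 turned with median-ratio scaling (-0.069, -0.056 and -0.042). With each mouse left out in turn, Sham minus Control ranged from -0.060 to 0.51 for Tfr2, from -0.21 to 0.76 for Slc40a1, from -0.091 to 0.75 for Fth1 and from -0.15 to 0.68 for Ftl1. VSG minus Sham ranged from -0.066 to 0.34 for Tfr2, from -0.78 to 0.85 for Slc40a1, from -0.017 to 0.13 for Hfe, from -0.35 to 0.50 for Fth1 and from -0.0037 to 0.82 for Ftl1, and VSG minus Control from -0.50 to 1.12 for Slc40a1.

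The count of the 9 genes called stayed at 0 under all alternatives but one, in VSG against Control, where leaving out mice gave a range from 0 to 2. The count of all genes called in Sham against Control, 28, was 64 with no filter, 0 with FPKM of at least 1 in all mice and from 0 to 168 with a mouse left out. In VSG against Sham, 5, it was 8 with a pseudocount of 0.1, 0 with FPKM of at least 1 in all mice, 9 per transcript, 9 with 2 groups in the fit and from 0 to 76 with a mouse left out. In VSG against Control, 28, it was 0 with FPKM of at least 1 in all mice and from 0 to 34 with a mouse left out. With the replicate number as a replicate block these 3 counts were 9, 0 and 10. Deviations of same-numbered mice correlated at 0.12, 0.06 and 0.04 between pairs of groups, so the number was not taken to pair them. The causes were not tested. With 1 or 20 kb in place of 5 kb, the top 50% of peaks or lists of equal length, the counts of genes with a peak moved by at most 1.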
